A study of Mus musculus with 12 samples.

Results

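The regions described here are ATAC-seq peaks at which HMGN1-overexpressing myeloid cells differed at least 2-fold from wild-type cells 96 h after differentiation was started and by no more than 1.5-fold before it, while wild-type cells moved by no more than 2-fold. Of 60072 peaks in the deposited table, 450 met the rule, 283 of them higher and 167 lower in HMGN1-overexpressing (HMGN1-OE) cells at 96 h. To apply it, RPKM (reads per kilobase of peak, scaled to the reads of the library) of each library was divided by the library's median over all peaks, so that a level of 1 is that of the median peak, and the levels were averaged per group. A region was kept when the larger of the HMGN1-OE and wild-type means at 96 h was at least 1, when HMGN1-OE over wild-type was at least 2 or at most 0.5 at 96 h and between 0.67 and 1.5 at 0 h, and when wild-type at 96 h over 0 h lay between 0.5 and 2. These level values chose the regions, so their sizes and directions are a description and were not tested.

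Cells came from c-Kit-positive mouse bone marrow immortalized with HoxB8 fused to the estrogen receptor, and both genotypes carried this fusion and were grown with interleukin 3. The 4 groups were HMGN1-OE at 0 h, wild-type at 0 h, HMGN1-OE at 96 h and wild-type at 96 h after estradiol was withdrawn, with 3 libraries each. HMGN1-OE cells carried a transgene for human HMGN1, wild-type littermates were the controls, and both were on a C57BL/6 background. Neither the age of the mice nor the number of immortalized lines per genotype was stated, so genotype cannot be told apart from the line of origin. Libraries were made in bulk, so a change in the mix of cells and a change within each cell cannot be told apart.

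HMGN1 binds nucleosomes and competes with linker histone H1, which loosens chromatin fibers. The transposase of ATAC-seq inserts adapters where DNA is not wrapped or otherwise shielded, so reads pile up over open enhancers and promoters. HoxB8 holds progenitors in an immature state as long as estradiol keeps the fusion protein active. During maturation of myeloid cells, progenitor elements close and elements bound by myeloid factors open.

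The libraries held 21581528 to 35560463 reads, of which 24.7% to 50.02% lay in peaks. At 96 h, 27.6% ± 2.5 of reads lay in peaks in HMGN1-OE and 41.6% ± 7.6 in wild-type libraries (SD, n = 3 each), and wild-type replicate 1 stood apart with 50.02%. Weak peaks also stood closer to the median in HMGN1-OE libraries at 96 h. The level at the 10th percentile of all peaks was 0.262 to 0.284 in HMGN1-OE against 0.175 to 0.216 in wild-type libraries at 96 h, and 0.143 to 0.148 in HMGN1-OE against 0.186 to 0.210 in wild-type libraries at 0 h. These library differences run with genotype at 96 h, and their part in the results below was not tested, except where a scaling is named.

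Over the 283 regions higher in HMGN1-OE cells, the medians of the 3 groups other than HMGN1-OE at 96 h lay close together. Single regions were less steady, as wild-type rose at least 1.5-fold over time at 54 and fell as much at 70. The median level was 0.674, 0.650 and 0.693 in the HMGN1-OE libraries and 0.673, 0.644 and 0.625 in the wild-type libraries at 0 h. At 96 h it was 1.41, 1.61 and 1.47 in the HMGN1-OE libraries, against 0.556, 0.630 and 0.646 in the wild-type libraries. In the typical region, only the HMGN1-OE libraries at 96 h stood above the level of the median peak. Over the 167 regions lower in HMGN1-OE cells, the median level was 1.23, 1.31 and 1.24 in the HMGN1-OE libraries and 1.34, 1.37 and 1.34 in the wild-type libraries at 0 h. At 96 h it was 0.773, 0.729 and 0.809 in the HMGN1-OE libraries, against 1.76, 1.69 and 1.72 in the wild-type libraries. Here the genotypes parted in both directions, with HMGN1-OE below and wild-type above their starting levels.

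**Figure D1:**
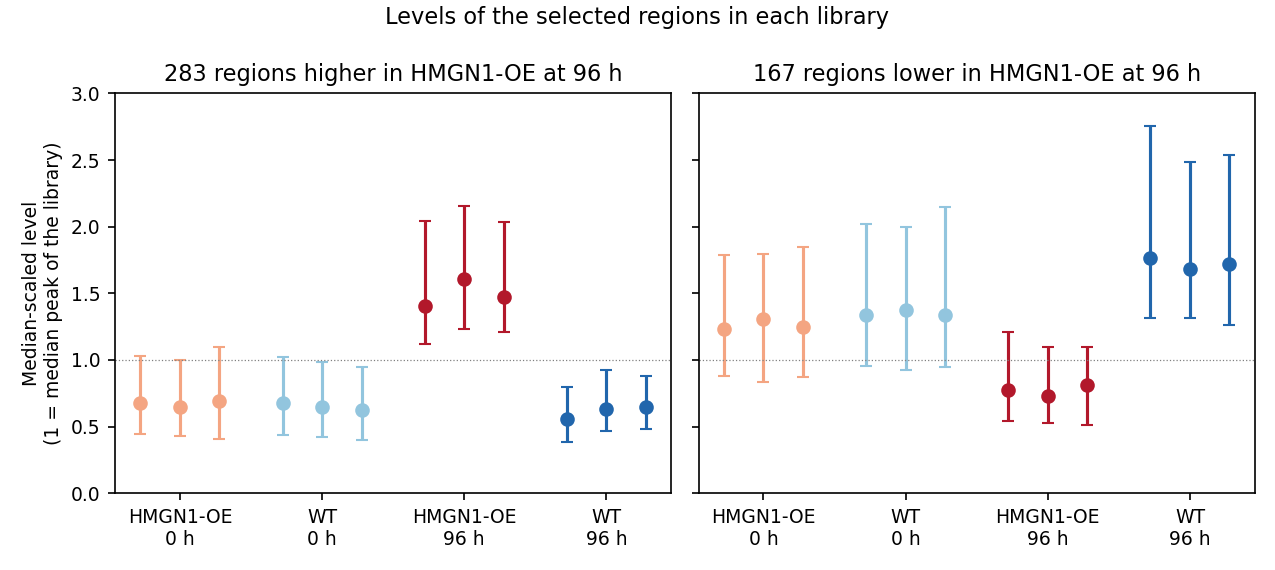
Median-scaled level (1 = the library's median peak) over the 283 regions higher (left) and the 167 regions lower (right) in HMGN1-OE cells at 96 h, by library; points are medians over the regions and bars run between the quartiles. In the higher regions the HMGN1-OE medians at 96 h are 1.41 to 1.61 and all other libraries lie at 0.556 to 0.693, whereas in the lower regions the HMGN1-OE medians at 96 h are 0.729 to 0.809 and the wild-type medians at 96 h, 1.69 to 1.76, stand above both groups at 0 h.

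To place the number of regions, the conditions were applied in turn. Of 60072 peaks, 41634 were alike between the genotypes at 0 h, 26746 of these stayed within 2-fold in wild-type cells, and 18100 of these reached a level of 1 at 96 h. The higher regions were 1.56% and the lower regions 0.923% of these 18100 eligible peaks. Over all peaks with a level of at least 1 at 96 h, 1413 were 2-fold higher and 1607 were 2-fold lower in HMGN1-OE cells. The regions described here made up 20.03% of those upward and 10.4% of those downward differences.

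The peak on chromosome 17 at 67433354 to 67433713 (mm9, 360 bp) had the largest ratio of all 450 regions. Its levels were 1.02, 1.48 and 1.197 in HMGN1-OE and 0.172, 0.140 and 0.139 in wild-type libraries at 96 h, from 35, 51 and 42 reads against 10, 5 and 4 reads. At 0 h the levels were 0.174, 0.301 and 0.208 in HMGN1-OE and 0.144, 0.421 and 0.111 in wild-type libraries. The 9 other libraries thus lay between 0.111 and 0.421, below every HMGN1-OE library at 96 h, and the ratio of the group means at 96 h was 8.17. A peak on chromosome 5 at 48955469 to 48955754 had levels of 0.952, 1.31 and 1.61 in HMGN1-OE and 0.130, 0.177 and 0.175 in wild-type libraries at 96 h (ratio 8.05). Its levels at 0 h were 0.188, 0.344 and 0.349 in HMGN1-OE and 0.0723, 0.0378 and 0.503 in wild-type libraries. At 0 h wild-type replicate 3 stood above all HMGN1-OE libraries and the other wild-type replicates below them, whereas at 96 h the genotypes did not overlap.

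Chromosome 9 at 22610326 to 22610695 held the peak with the largest ratio of 96 h over 0 h in HMGN1-OE cells. Its levels were 1.13, 1.21 and 1.16 in HMGN1-OE and 0.117, 0.0820 and 0.237 in wild-type libraries at 96 h. At 0 h they were 0.0242, 0.133 and 0.157 in HMGN1-OE and 0.0839, 0.205 and 0.0432 in wild-type libraries. The mean at 96 h was 11.1 times that at 0 h in HMGN1-OE cells and 1.31 times in wild-type cells, but the 0 h values rest on 1 to 7 reads per library. Next came a peak on chromosome 19 at 47481078 to 47481267, with levels of 1.98, 1.59 and 2.43 in HMGN1-OE, against 0.521, 0.479 and 0.0659 in wild-type libraries at 96 h, the last from a single read. On chromosome 15, the peak at 44312562 to 44312747 had levels of 1.52, 1.90 and 1.99 in HMGN1-OE and 0.366, 0.489 and 0.202 in wild-type libraries at 96 h. All HMGN1-OE libraries at 96 h lay above the 9 others at each of these 5 peaks. The next 5 by ratio after adding 0.1 to each mean, on chromosomes 3, 13, 10, X and 17, had ratios of 3.81 to 5.03. The one on chromosome X at 49772987 to 49773413 was the best covered of them, with 157, 141 and 180 reads in HMGN1-OE and 65, 37 and 42 in wild-type libraries at 96 h.

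Among the regions lower in HMGN1-OE cells, the peak on chromosome 11 at 68520064 to 68520538 (475 bp) had the smallest ratio. Its levels were 0.287, 0.263 and 0.410 in HMGN1-OE and 1.38, 0.894 and 1.35 in wild-type libraries at 96 h. At 0 h they were 1.08, 1.08 and 0.910 in HMGN1-OE and 0.675, 0.820 and 0.960 in wild-type libraries. At 96 h the site stood at 0.313 times its 0 h level in HMGN1-OE cells and at 1.47 times in wild-type cells, and the ratio between the genotypes was 0.265. On chromosome 13, the peak at 52888992 to 52889527 had the lowest ratio of 96 h over 0 h in HMGN1-OE cells. Its levels were 0.391, 0.272 and 0.325 in HMGN1-OE and 0.958, 1.32 and 1.24 in wild-type libraries at 96 h, against 1.79, 1.43 and 1.67 in HMGN1-OE and 1.31, 1.57 and 1.36 in wild-type libraries at 0 h. In HMGN1-OE cells it stood at 0.202 times its level at 0 h.

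On chromosome 3, the peak at 121577371 to 121577813 had levels of 0.260, 0.846 and 0.347 in HMGN1-OE and 1.84, 1.32 and 1.78 in wild-type libraries at 96 h. HMGN1-OE replicate 2 stood above the other replicates, and without it the log2 ratio was -2.44, against -1.77 with all libraries. On chromosome 13, the peak at 94363381 to 94363619 had levels of 0.394, 0.436 and 0.215 in HMGN1-OE and 1.22, 1.35 and 1.15 in wild-type libraries at 96 h. Chromosome 12 held a peak at 80851299 to 80851526 that had levels of 0.230, 0.502 and 0.585 in HMGN1-OE and 2.06, 1.60 and 1.04 in wild-type libraries at 96 h. Wild-type stood there at 1.95 times its 0 h level, just under the limit of 2. With 0.1 added to each mean, the next 5 by ratio, on chromosomes 10, 15, 10, 17 and 10, had ratios of 0.305 to 0.346, and at 4 of them wild-type stood at 1.60 to 1.71 times its level at 0 h.

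**Figure D2:**
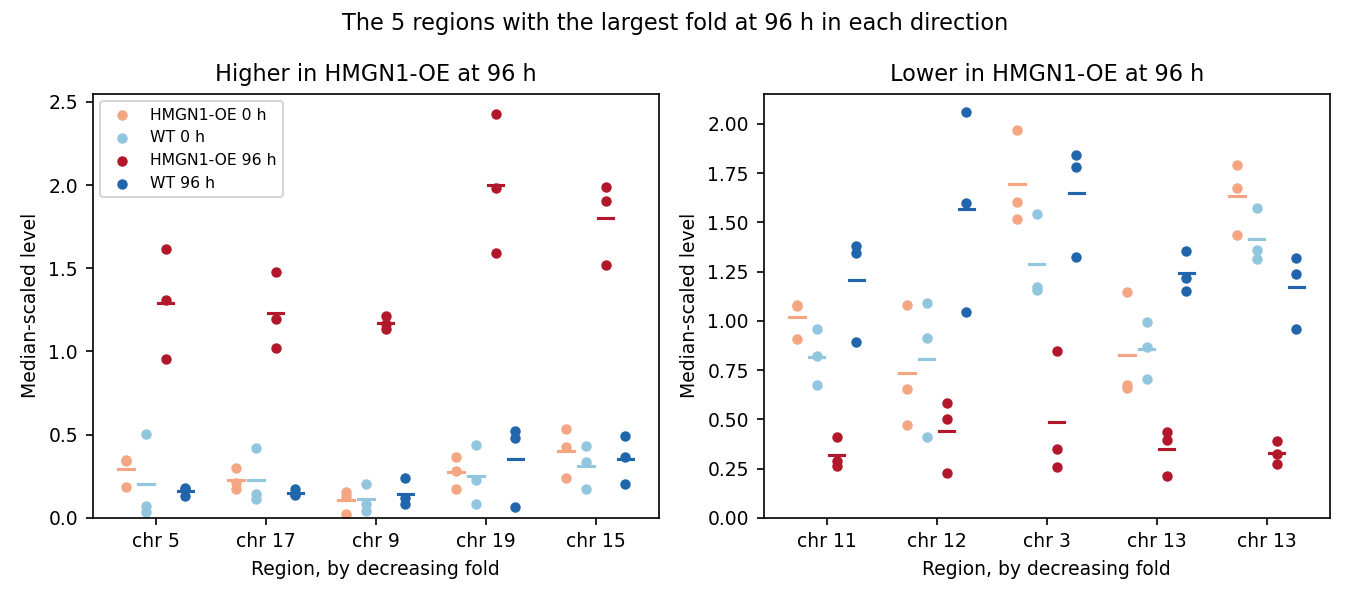
Median-scaled level of each library (points) and group mean (bars) at the 5 regions with the largest fold at 96 h in each direction, each on the chromosome named below it. In the higher regions (left) the HMGN1-OE points at 96 h stand alone above 0.9, whereas in the lower regions (right) they lie below every wild-type point at 96 h.

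How each genotype moved was examined next, since the rule lets wild-type change by up to 2-fold. HMGN1-OE moved further than wild-type between 0 h and 96 h (on the log2 scale) at 228 of 283 higher regions (80.6%) but only at 92 of 167 lower regions (55.1%). Over all peaks this share was 45.0%. At the higher regions the median ratio of 96 h over 0 h was 2.21 in HMGN1-OE and 0.942 in wild-type cells. At the lower regions it was 0.659 in HMGN1-OE and 1.40 in wild-type cells. The rule limits the change in wild-type cells to 2-fold and sets no limit in HMGN1-OE cells, so it favours a larger move in HMGN1-OE cells, and nothing is read from these shares against those of all peaks.

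With a change of 1.5-fold in the group means counted as opening or closing, 140 of the 283 higher regions opened in HMGN1-OE and were flat in wild-type cells. Both genotypes opened at 54, HMGN1-OE opened while wild-type closed at 36, and wild-type closed while HMGN1-OE was flat at 34. The other 19 moved by less than 1.5-fold in each genotype. Of the 167 lower regions, 72 closed in HMGN1-OE and were flat in wild-type cells, 53 opened in wild-type and were flat in HMGN1-OE cells, and 13 moved in opposite directions. A further 3 closed in both and 26 were flat in both.

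**Figure D3:**
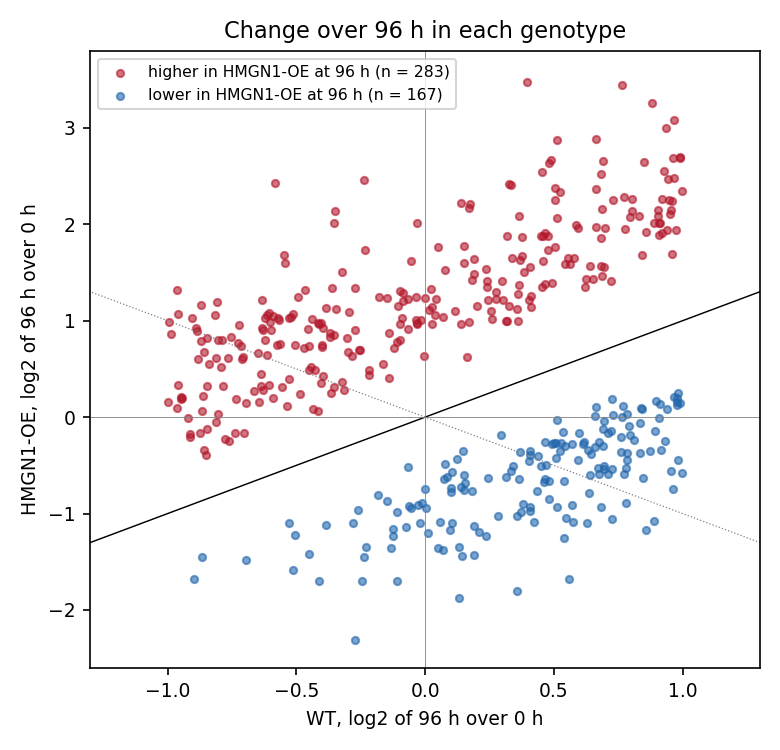
Log2 of the mean level at 96 h over that at 0 h in HMGN1-OE cells (vertical axis) against the same in wild-type cells (horizontal axis) for the 450 regions; the solid line marks equal change and the dotted line equal and opposite change. The rule holds wild-type between -1 and 1, the 283 higher regions lie above the solid line up to 3.48, and the 167 lower regions lie below it down to -2.31.

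Regions at which the 3 groups other than HMGN1-OE at 96 h lay within 1.2 times of each other are the strictest form of the pattern. There were 25 such regions among the higher (8.83%) and 15 among the lower (8.98%). A peak on chromosome 12 at 12693770 to 12694449 (680 bp) had the largest ratio of the higher ones after adding 0.1 to each mean. Its levels were 1.49, 1.49 and 1.24 in HMGN1-OE and 0.282, 0.372 and 0.332 in wild-type libraries at 96 h, against 0.237, 0.333 and 0.342 in HMGN1-OE and 0.289, 0.302 and 0.282 in wild-type libraries at 0 h. All 9 other libraries thus lay between 0.237 and 0.372, and the ratio at 96 h was 4.28. The peaks on chromosome 11 at 60875852 to 60876446, chromosome 5 at 14994594 to 14994905, chromosome 9 at 66169902 to 66170360 and chromosome 7 at 35939512 to 35939780 followed with ratios of 3.55, 3.35, 2.99 and 2.70.

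Of the 5 lower ones with the largest difference, the peak on chromosome 2 at 118315998 to 118317414 was the widest, at 1417 bp, and the best covered. It held 146, 119 and 142 reads in HMGN1-OE and 650, 369 and 298 in wild-type libraries at 96 h. Its levels were 1.08, 0.874 and 1.03 in HMGN1-OE and 2.84, 2.63 and 2.64 in wild-type libraries at 96 h, against 3.46, 3.24 and 2.99 in HMGN1-OE and 2.99, 3.20 and 2.56 in wild-type libraries at 0 h. The HMGN1-OE libraries at 96 h stood at about the median peak and the 9 others well above it, with a ratio of 0.368. A further peak on chromosome 2, at 129718956 to 129719587, had levels of 1.09, 1.04 and 0.877 in HMGN1-OE and 2.75, 2.64 and 2.56 in wild-type libraries at 96 h (ratio 0.378). The remaining 3, on chromosome 10 at 87516956, chromosome 7 at 52453908 and chromosome 11 at 72235021, had ratios of 0.390 to 0.411. The one on chromosome 7 rested on 11, 4 and 17 reads in HMGN1-OE libraries at 96 h. Its HMGN1-OE levels at 0 h ran from 1.04 to 2.34, and without HMGN1-OE replicate 2 at 96 h its log2 ratio was -0.96, short of 2-fold.

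Strong sites were few. Of the higher regions 73.9%, and of the lower 62.3%, had a level under 2 in whichever genotype was higher at 96 h, against 40.2% of eligible peaks. A level of 5 or more was reached at 7 higher and 11 lower regions. The strongest higher region, on chromosome 5 at 109985739 to 109988114 (2376 bp), had a mean level of 24.2 ± 0.964 in HMGN1-OE and 11.8 ± 1.16 in wild-type libraries at 96 h, and of 19.8 ± 1.57 in HMGN1-OE and 18.2 ± 2.09 in wild-type libraries at 0 h (SD, n = 3). On chromosome 1, the peak at 90173539 to 90174466 had a mean level of 22.0 ± 1.02 in HMGN1-OE and 10.6 ± 0.934 in wild-type libraries at 96 h, and of 20.6 ± 1.59 in HMGN1-OE and 20.6 ± 2.51 in wild-type libraries at 0 h. Both sites stood near their 0 h level in HMGN1-OE cells at 96 h (1.22 and 1.07 times) and below it in wild-type cells (0.647 and 0.513 times). The strongest lower region, on chromosome 5 at 143670931 to 143671330, had a mean level of 3.34 ± 0.196 in HMGN1-OE and 7.52 ± 0.281 in wild-type libraries at 96 h. At 0 h it had 4.999 ± 0.683 in HMGN1-OE and 3.77 ± 0.556 in wild-type libraries.

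By starting level, of 167 eligible peaks with a mean level under 0.5 at 0 h, 82 were higher and 1 was lower, where reaching the required level of 1 takes a rise that the rule allows in HMGN1-OE cells but limits to 2-fold in wild-type cells. Of 1736 with a level between 0.5 and 1, 128 were higher and 52 lower. Of 5397 between 1 and 2, 54 were higher and 77 lower, and of 4778 at 5 or more, 4 were higher and 3 lower. The spread between replicates was also wider than over eligible peaks as a whole. The median coefficient of variation at the higher regions was 16.5% in HMGN1-OE and 26.6% in wild-type libraries at 96 h, and at the lower regions 21.5% in HMGN1-OE and 13.9% in wild-type libraries, against 10.4% and 9.71% over eligible peaks. A median of 49 reads in HMGN1-OE and 22 in wild-type libraries at 96 h stood behind each level of a higher region, and 30 in HMGN1-OE and 79 in wild-type libraries behind that of a lower region.

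Replicates were compared with the size of the difference. At 96 h the HMGN1-OE and wild-type libraries did not overlap at 276 of 283 higher regions, where 19.2% of all peaks did so upward, and at 161 of 167 lower regions, where 16.2% did so downward. All HMGN1-OE libraries at 96 h lay above the other 9 at 211 higher regions (5.07% of all peaks) and below them at 82 lower regions (3.11% of all peaks). With limma on log2(TMM-scaled RPKM + 1) over 57424 tested peaks, 277 of 282 tested higher regions had an adjusted p under 0.05 and a positive difference between HMGN1-OE and wild-type cells at 96 h (10.9% of all tested peaks), and 164 of 167 lower regions a negative one (11.2%). As the rule used this contrast and these libraries, nothing is read from these counts. The change over time differed between the genotypes by the interaction term at 115 higher regions, all positive (9.18% of all tested peaks), and at 124 lower regions, all negative (7.49%), which the rule also favours.

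The other contrasts of the fit were set beside the label of steadiness. At 0 h the libraries of the genotypes did not overlap at 42 higher (14.8%) and 52 lower (31.1%) regions, as was the case in either direction at 38.5% of all peaks. Between the genotypes at 0 h, 21 higher regions were called positive (10.9% of all tested peaks) and 0 negative (11.5%), and 7 lower regions were called positive and 0 negative. The fit used TMM scaling and added 1 to each value, whereas the levels used median scaling, so the sign of a call need not match the levels. At the lower regions the median log2 difference at 0 h was -0.03 in the fit, while the median ratio of the levels was 0.858. Nothing is therefore read from the signs at 0 h. Over time in HMGN1-OE cells, 235 higher regions were called positive (31.1%) and 88 lower regions negative (29%). Over time in wild-type cells, 61 higher regions were called positive (34.2%) and 22 negative (29.6%), while 111 of 167 lower regions were called positive and 3 negative. In either direction, 60.1% of all tested peaks were called over time in HMGN1-OE cells and 63.7% in wild-type cells. At the higher regions the median log2 change over time in wild-type cells was 0.14 in the fit but -0.09 by the levels, so the lean of these calls depends on the scaling. By the levels, wild-type rose at least 1.5-fold at 54 and fell as much at 70 higher regions. At the lower regions it rose as much at 66 and fell at 3. In both directions, then, "wild-type steady" holds only in the sense of the 2-fold limit. The rule used these contrasts as well, and the counts describe the regions.

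A test on libraries that the choice had not used was made by applying the rule to the 4 libraries that carry a single replicate number and fitting limma to the other 8. Chosen on replicate 1, 425 peaks were higher, and 137 of 424 tested (32.3%) were called in the same direction in the other libraries, where 5.43% of all tested peaks were. Chosen on replicate 2, it was 137 of 381 (36.0%, against 5.76% of all), and chosen on replicate 3 it was 147 of 406 (36.2%, against 8.69%). For lower peaks the counts were 105 of 338 (31.1%, against 5.46%), 118 of 346 (34.1%, against 6.42%) and 145 of 373 (38.9%, against 8.52%). Most peaks picked from 1 library per group therefore had no call in the others, at 2 libraries against 2, and the ratio was closer to 1 there. The median ratio was 2.41 to 2.46 in the libraries used to choose the higher peaks and 1.65 to 1.75 in those held out, and 0.432 to 0.434 against 0.664 to 0.698 for the lower peaks. The direction was kept at 86.8% to 93.2% of higher and 82.0% to 86.1% of lower peaks. With no libraries held out, HMGN1-OE had the larger mean at 96 h at 55.0% of all peaks and wild-type at 45.0%, so part of this agreement is shared by any peak. The share over all peaks was not taken in the held-out libraries alone. The 450 regions were chosen on all 12 libraries, so no held-out ratio exists for them.

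The number of regions depended on how libraries were scaled. With TMM, RLE or total reads in peaks, 231 to 262 regions were higher and 171 to 179 lower, but many were other regions. Of the 283 higher regions, 194, 190 and 153 met the rule under these scalings (68.6%, 67.1% and 54.1%), and of the 167 lower regions 122, 126 and 96 did (73.1%, 75.4% and 57.5%). With RPKM as deposited, which is relative to all reads of a library, 12 were higher and 2245 lower. The median log2 ratio at 96 h over all peaks was -0.60 as deposited and 0.06 with median scaling, and the ratios at 0 h, those over time and the meaning of the level minimum shifted as well. A scaling applies the same factor to all peaks of a library, and the ratio of group means shifts by an amount that differs somewhat between peaks. All 283 higher and 167 lower regions kept their direction as deposited, which the 2-fold difference that chose them favours. Only 41 of the higher regions were still 2-fold as deposited. The median log2 ratio of the higher regions was 1.25 with median scaling and 0.58 as deposited, and that of the lower regions -1.19 and -1.85. Regions that met the whole rule under all 5 scalings numbered 9 higher and 66 lower.

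**Figure D4:**
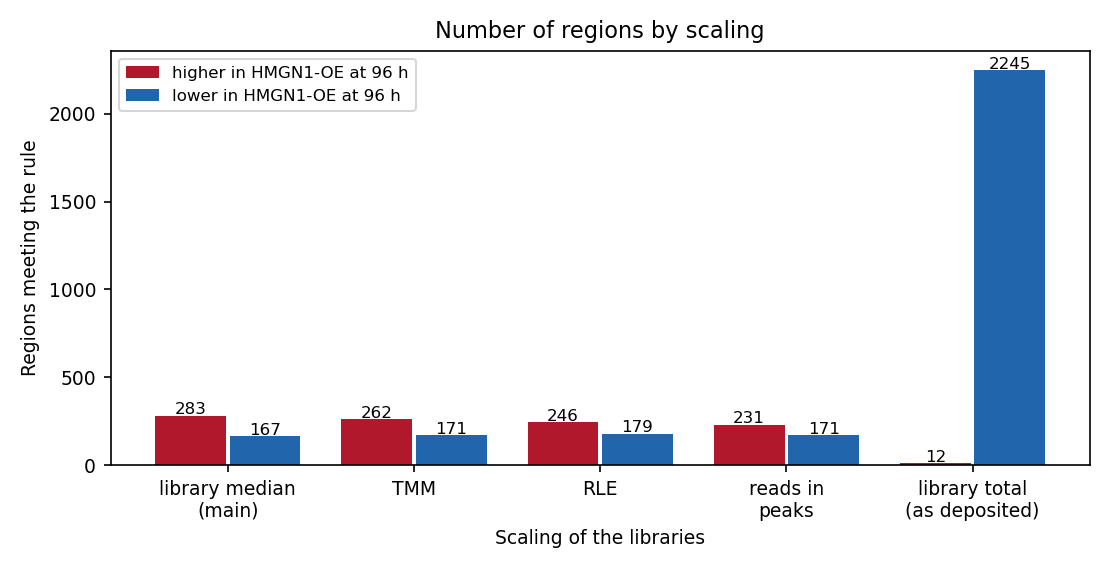
Number of regions that met the rule (vertical axis) under 5 scalings of the libraries (horizontal axis), with regions higher in HMGN1-OE cells in red and lower ones in blue. The counts are 231 to 283 higher and 167 to 179 lower under the first 4 scalings, and 12 higher and 2245 lower with RPKM as deposited.

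Position was not used by the rule, and width entered it only through RPKM, in which reads are divided by peak width. The higher regions were narrower than other peaks, with a median width of 329 bp (quartiles 234 and 456.5 bp), against 622 bp in eligible peaks and 430 bp in all peaks. The lower regions had a median of 409 bp (quartiles 247 and 577 bp). Widths under 300 bp made up 43.8% of higher and 35.3% of lower regions, against 14.5% of eligible and 29.0% of all peaks. Peaks lower in HMGN1-OE cells at 96 h at which wild-type opened more than 2-fold (531 peaks) were of similar width, with a median of 332 bp. Peaks with the mirrored pattern, different at 0 h and alike at 96 h with wild-type steady, had medians of 331 bp (143 higher) and 486.5 bp (322 lower). Peaks are not replicates, so these widths were not tested. They were not compared at equal level either, and the regions were weaker than eligible peaks.

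The regions were spread over all autosomes and chromosome X. Chromosomes 5 and 9 held 31 higher regions each, 11.0% of all higher regions apiece, while holding 6.54% and 5.47% of all peaks. Adjoining windows of 200 kb on chromosome 5, described below, held 9 and 2 of these. Chromosome 7 held 8, or 2.83% of the higher regions with 6.42% of all peaks. Of the 167 lower regions, chromosome 11 held 21, the highest number, with 7.48% of all peaks, followed by chromosomes 2 and 7 with 14 each. Chromosome 16 held 9 higher and 2 lower regions. Neighbours were few, as 243 of 259 windows of 200 kb with a higher region held a single one, and 149 of 158 with a lower one. Another region of the same direction lay within 10 kb of 12 higher (4.24%) and 4 lower regions (2.40%), while 0.534% and 0.382% of all other peaks had such a region that near.

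The fullest window lay at 15000001 to 15200000 of chromosome 5. Higher regions made up 9 of its 23 peaks, with a median level of 1.202 in HMGN1-OE and 0.377 in wild-type cells at 96 h. At 96 h the HMGN1-OE mean was above the wild-type mean at all 23 peaks, and their median log2 ratio was 1.97, against 0.14 at 0 h. The adjoining window from 14800001 to 15000000 held 2 more, with all 14 peaks higher in HMGN1-OE cells. In wild-type cells the median log2 change over time was -0.96 over the 23 peaks, so the window as a whole was not steady there, and the 9 higher regions were its only eligible peaks. No window held more than 2 lower regions, and 9 windows held 2.

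Peaks near the regions leaned the same way. Within 10 kb of a higher region lay 319 other peaks with a median log2 ratio of 0.30 at 96 h, and 71.5% of them were higher in HMGN1-OE cells, against 55.0% of all peaks. Within 10 kb of a lower region lay 229 other peaks with a median log2 ratio of -0.19, of which 67.7% were lower, against 45.0% of all peaks. The ratio of those neighbours at 0 h was near 0 on the log2 scale, at -0.06 and -0.11, while over all peaks the median ratio at 0 h, not on the log2 scale, was 0.904. Peaks of the chromosome 5 windows above were not left out of these values. Within 50 kb the medians were 0.15 and -0.08. The nearest peak of any kind lay a median of 6.14 kb from a higher, 6.22 kb from a lower and 6.20 kb from an eligible peak, so by the median the regions were about as densely surrounded as other eligible peaks. The upper quartile was 14.4 kb for higher, 10.8 kb for lower and 11.5 kb for eligible peaks, so some higher regions were more isolated.

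At the threshold, the 3 weakest higher regions had ratios of 2.00 to 2.01 and lay on chromosome 5 at 16375256, chromosome 4 at 144884367 and chromosome 1 at 36217053. The 3 peaks that just missed it lay on chromosome 13 at 14125788, chromosome 17 at 28217347 and chromosome 5 at 120544724, with ratios that round to 2.00. The 3 weakest lower regions lay on chromosome 12 at 112797938, chromosome 4 at 46767643 and chromosome 7 at 52337716, with ratios of 0.4995 to 0.4997, and the 3 that just missed had 0.502 to 0.503. The just-included peak on chromosome 12 stood at 0.952 ± 0.129 in HMGN1-OE and 1.90 ± 0.290 in wild-type libraries at 96 h, and the just-excluded peak on chromosome 7 at 91251193 at 1.15 ± 0.158 in HMGN1-OE and 2.29 ± 0.298 in wild-type libraries (SD, n = 3).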

How the data were processed

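ATAC-seq was performed on 12 libraries by the Omni-ATAC protocol. The deposited values are RPKM, computed by the authors per peak. According to the study's methods, reads were processed with ChiLin, BWA and MACS, and the submitters' processing notes give mm9 as the build. For peak merging and filtering, the shift of read ends and duplicates, the treatment was not stated. RPKM times peak width gave whole reads for 100% of values (tolerance 0.001 reads). Groups and replicate numbers came from sample titles. The labels call replicates biologically independent.

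Members, lists and tests were chosen with earlier results of these data known. Counts by the rule used median scaling. limma 3.58.1 (R 4.3.3; mean-variance trend, robust) was fitted to log2(TMM-scaled RPKM + 1) of all 12 libraries with 4 group means. Peaks needed the equivalent of 10 reads in 3 libraries and 15 reads in all. Benjamini-Hochberg adjustment ran over all tested peaks, two-sided. TMM trimmed 30% of ratios and 5% of levels. The rule was run on made-up levels and the test on simulated reads, as a check of the code only. The simulated reads had the same spread setting for all peaks. Unlike these libraries, they had no built-in difference in the share of reads in peaks. Regions named were the 10 with the largest ratio each way after adding 0.1 (at most 1 per 200 kb), the 5 with the largest ratio whose 3 other groups lay within 1.2 times, the 3 on either side of the threshold and the fullest windows. The strongest regions and the second window on chromosome 5 were named after their values were seen. Positions are 1-based. Without a genome or annotation of mm9, no gene, exon or sequence is given. Depth limits precision as the read counts show, and duplicate reads, if kept, are not independent. Figures were drawn with matplotlib 3.10.9.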

Additional observations from a re-analysis of the deposited data

Results flagged for a closer look

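The change over 96 h was compared between HMGN1-OE and wild-type cells by the interaction term of the limma fit (adjusted p under 0.05). It was positive at 115 of 282 tested higher regions, where 9.18% of all tested peaks were, and negative at 124 of 167 lower regions, where 7.49% were. The rule asks for likeness at 0 h and a difference at 96 h, so it selects for such an interaction, and these counts describe the regions. Groups of 3 libraries were too small to test whether a single library was an outlier. Counts of regions with each library left out in turn are given below.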

How the results depend on the processing

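Counts of regions (283 higher, 167 lower) moved most with RPKM as deposited (12 higher, 2245 lower). They were 538 higher with a level minimum of 0.5, 74 and 63 with a minimum of 2, 48 and 9 with a fold of 3, 68 and 49 with wild-type held within 0.8 to 1.2, and 157 and 93 with the genotypes within 0.8 to 1.2 at 0 h. Leaving out a library gave 256 to 340 higher and 164 to 218 lower regions, and without wild-type replicate 1 at 96 h 209 of the 283 and 137 of the 167 were kept. Subtracting each library's 10th percentile level, tried after seeing the data, gave 321 and 239, but only 150 and 126 were the same regions. limma calls among higher regions were 108 as deposited, against 277. In that fit as deposited, 1131 of all 57424 tested peaks were called higher and 27035 lower. Calls in held-out libraries as deposited were 41, 23 and 47 for higher peaks, chosen on replicates 1, 2 and 3. For lower peaks they were 229, 241 and 291. Calls over all peaks were not counted in those held-out fits, so nothing is read from these counts. The share of regions with the larger move in HMGN1-OE was 71.0% for lower regions as deposited. Leaving out a library, it was 74.3% to 81.2% for higher and 54.1% to 63.8% for lower regions. The share with another region within 50 kb was 12.01% of higher and 9.58% of lower regions, against 4.24% and 2.40% within 10 kb. The cause of these shifts was not tested. With a replicate block, 278 higher and 163 lower regions were called, where 6216 and 6332 of all 57424 tested peaks were. Libraries with the same number deviated together little (r of -0.008 to 0.039 between HMGN1-OE and wild-type at 96 h). Over all pairs of groups r was -0.041 to 0.056, and not every library correlated best with its own number. No pairing by number was seen, which does not settle whether libraries were paired. A GC offset was not run for want of a genome of that build.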
